A study of Mus musculus with 12 samples.

Results

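The translation elongation factor genes were followed in mouse cardiomyocytes (CMs) with and without the transcription factor SRF at 2 postnatal stages. The 7 genes were Eef1a1, Eef1a2, Eef1b2, Eef1d, Eef1g, Eef2 and Eef2k, found by symbol among the 23337 genes of the count tables, and all 7 had counts in every library. They were chosen by measured values of these same libraries, because Eef1a1 was far lower and Eef1a2 higher at P90 than at P14. The stage differences of the 7 genes are therefore given as a description, with no test, and the tests below concern the loss of Srf.

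The 12 libraries form 4 groups of 3. In the neonatal model, AAV9-cTNT-Cre was injected at postnatal day 1 and CMs were collected at day 14. In the adult model, the virus was injected at day 60 and CMs were collected at day 90. KO animals were Srf-flox/flox and CTRL animals Srf-flox/+, so the Cre-treated CTRL CMs kept 1 intact Srf copy. The virus expressed Cre under the cardiac troponin T promoter at a low dose, which gave mosaic hearts, and a Cre-activated fluorescent reporter was used to sort the transduced CMs. The mice had a mixed genetic background and the labels give no sex. The study counts hearts as its replicates for Srf in these sorted CMs. The labels themselves name no heart for a library, and the p-values measure the spread between libraries. P14 and P90 differ in age, in time since injection and in the table that holds them, and these cannot be told apart.

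Elongation is the step of translation in which the ribosome lengthens the peptide. The factor eEF1A, encoded by Eef1a1 or Eef1a2, brings each aminoacyl-tRNA to the ribosome with GTP. Its nucleotide exchange complex eEF1B, built from the products of Eef1b2, Eef1d and Eef1g, reloads it. The factor eEF2 moves the ribosome by a codon, and its kinase eEF2K, a calmodulin-dependent enzyme encoded by Eef2k, phosphorylates and inhibits it. Eef1a1 is broadly expressed, whereas Eef1a2 is known as the isoform of muscle and neurons, and the exchange of the former for the latter after birth is a known feature of these tissues.

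Both eEF1A isoforms had to be told apart by sequence, so the first 120 coding bases of each are shown, read from GRCm38 (mm10), with capitals at the bases that differ between them. Eef1a1 lies on the minus strand at chr9:78478454-78481724 and Eef1a2 on the minus strand at chr2:181147692-181157015. The stretches printed are chr9:78480535-78480654 and chr2:181155287-181155406, each given 5′ to 3′ along the coding strand and starting at the initiator codon.
Eef1a1: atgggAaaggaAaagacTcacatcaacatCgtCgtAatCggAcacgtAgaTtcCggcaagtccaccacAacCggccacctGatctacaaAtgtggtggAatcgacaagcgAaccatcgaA
Eef1a2: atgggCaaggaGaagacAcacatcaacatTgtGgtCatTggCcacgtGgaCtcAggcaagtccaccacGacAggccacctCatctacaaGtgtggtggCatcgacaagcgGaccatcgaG
They differed at 18 of the 120 positions, and all 18 were the third base of a codon. Over the whole coding sequence, of 1389 bases in Eef1a1 and 1392 in Eef1a2, the alignment was 80% identical, and the longest run without a difference was 23 bases. No 50-base window of any Eef1a2 transcript occurred in another gene of the annotation. By contrast, 53.6% of the windows of Eef1a1 transcripts also occurred in 1 or more of 21 other genes, such as Gm13456, and 64.3% of the windows of Eef1g transcripts in 5 others. For the other members this share was 9.69% for Eef1d, 7.86% for Eef2, 5.83% for Eef1b2 and 0.962% for Eef2k. Gm6548, which shares windows with Eef1a1 and has a row of its own, held 4 to 82 reads per library. No member shared exon bases with another gene of the tables. How the authors treated reads that map to several places is not given in the sources used here, so the counts of Eef1a1 and Eef1g are uncertain, and a comparison of levels between genes carries that uncertainty while a comparison of 1 gene between samples was counted the same way throughout.

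The targeted gene was checked first. In P14 CTRL, Srf stood at 64.0, 57.1 and 49.4 CPM (a gene's reads relative to the depth of its library, scaled by the trimmed mean of M-values, TMM), against 32.1, 27.5 and 9.75 CPM in P14 KO, a log2 fold change of -1.30 ± 0.36 (SE, n = 3 per group, edgeR adjusted p = 0.0628). With the replicate numbers as a block the neonatal loss of Srf passed (-1.44, edgeR adjusted p = 0.022), as it did with DESeq2 (adjusted p = 0.00288) and without replicate 3 of P14 KO (-0.92, edgeR adjusted p = 0.0474). In P90 CTRL it stood at 71.2, 59.1 and 81.1 CPM, against 32.9, 28.9 and 28.1 CPM in P90 KO (-1.23 ± 0.13, n = 3 per group, edgeR adjusted p = 0.00347), a call that was lost in 1 fit of all 12 libraries (edgeR adjusted p = 0.18). The groups did not overlap at either stage. Libraries held 9740389 to 23103460 assigned reads, so that 3 reads corresponded to 0.130 to 0.308 CPM. The 7 CM markers summed to 62538 to 95279 CPM, and were lowest in P14 KO, where no library exceeded 67085 CPM. Myh6, which the study names a direct SRF target, held the largest part. It averaged 55725 CPM in P14 CTRL and 35516 CPM in P14 KO. Of the 7 markers, edgeR called 1 lower and 0 higher in neonatal KO. Actn2 alone had a higher mean there (6506 CPM, against 5377 CPM in P14 CTRL). The 7 fibroblast markers, led by Col3a1, summed to 106 to 296 CPM in P14 CTRL, 172 to 316 CPM in P14 KO, 48.7 to 67.5 CPM in P90 CTRL and 47.7 to 67.5 CPM in P90 KO. The 7 endothelial markers summed to 184 to 398 CPM in P14 CTRL, 241 to 362 CPM in P14 KO, 178 to 236 CPM in P90 CTRL and 169 to 270 CPM in P90 KO. No marker of these 3 lists had 0 reads over a whole group. Pericyte and smooth muscle markers summed to 398 to 669 CPM over all libraries, and Abcc9 held most of that sum. Abcc9 averaged 385 and 283 CPM in P14 CTRL and KO, and 527 and 381 CPM in P90 CTRL and KO. Of these 6 markers, edgeR called 1 higher and 0 lower in neonatal KO. Mean Cspg4 was 48.1 CPM in P14 CTRL and 122 CPM in P14 KO. Immune markers summed to at most 12.6 CPM in any library, and skeletal muscle markers to at most 1.22 CPM. Replicate 2 of P14 CTRL stood apart from its group, with the lowest fibroblast (106 CPM) and endothelial (184 CPM) sums at that stage.

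The isoform that made up most eEF1A transcripts was Eef1a1 at P14 and Eef1a2 at P90, in both genotypes. Eef1a1 measured 305, 222 and 274 CPM in P14 CTRL and 285, 248 and 305 CPM in P14 KO. At P90 it measured 13.4, 11.6 and 15.9 CPM in CTRL and 19.3, 19.4 and 13.9 CPM in KO. The lowest P14 library was thus more than 10 times the highest P90 library, and the smallest value rested on 107 reads. In CTRL, mean Eef1a1 was 267 ± 42.1 CPM at P14 and 13.6 ± 2.15 CPM at P90 (SD, n = 3 each), 19.6-fold higher at P14. In KO, the means were 279 ± 29.0 and 17.5 ± 3.16 CPM (SD, n = 3 each), 15.9-fold higher at P14. Of the 9467 genes with a mean of at least 5 CPM, 4 had a lower P90 to P14 ratio in CTRL than Eef1a1. Of the markers tested, 4 of 6 fibroblast and 4 of 7 endothelial genes also fell between P14 and P90 CTRL, Col3a1 the most (log2 fold change -2.49), and their part in the Eef1a1 levels was not tested. Replicate 2 of P14 CTRL, with the lowest sums of these markers at that stage, had the lowest Eef1a1 and the highest Eef1a2 of the P14 libraries. The KO libraries went the other way. Replicate 2 of P14 KO had the highest fibroblast (316 CPM) and endothelial (362 CPM) sums of its group. It also had the lowest Eef1a1 (248 CPM) and the highest Eef1a2 (110 CPM) of that group. In bulk RNA, fewer cells of a type and less RNA per cell cannot be told apart.

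Eef1a2 measured 86.1, 151 and 108 CPM in P14 CTRL and 99.7, 110 and 93.5 CPM in P14 KO. At P90 it measured 331, 177 and 247 CPM in CTRL and 362, 239 and 268 CPM in KO. No P14 library reached the lowest P90 library, although replicate 2 of P14 CTRL came closest to it. Mean Eef1a2 was 115 ± 33.2 CPM at P14 and 252 ± 77.0 CPM at P90 in CTRL (SD, n = 3 each), 2.19-fold higher at P90. In KO the means were 101 ± 8.38 and 289 ± 64.3 CPM, 2.86-fold higher at P90. In CTRL, 292 of the 9467 genes had a higher P90 to P14 ratio.

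Per kilobase of exon, the scale on which levels of different genes can be compared, Eef1a2 made up 19.8, 37.4 and 25.5% of eEF1A transcripts in P14 CTRL and 23.4, 28.0 and 21.1% in P14 KO. In P90 CTRL the share was 95.6, 93.0 and 93.1%, and in P90 KO 94.3, 91.5 and 94.4%. The 95% Wilson intervals of these shares, which cover counting error only, were 1.05 to 2.54 percentage points wide, so that the spread among the P14 CTRL libraries was larger than counting error. The 2 stages did not overlap, whereas KO and CTRL overlapped at each stage. The group means were 27.6 ± 8.97% and 24.2 ± 3.47% for CTRL and KO at P14, and 93.9 ± 1.44% and 93.4 ± 1.64% at P90 (SD, n = 3 each). The log2 ratio of Eef1a2 to Eef1a1 was -1.44 ± 0.64 in P14 CTRL, -1.66 ± 0.27 in P14 KO, 3.98 ± 0.39 in P90 CTRL and 3.85 ± 0.36 in P90 KO. Without replicate 2 of P14 CTRL, the P14 difference between KO and CTRL in this ratio changed sign, to 0.12.

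**Figure D1:**
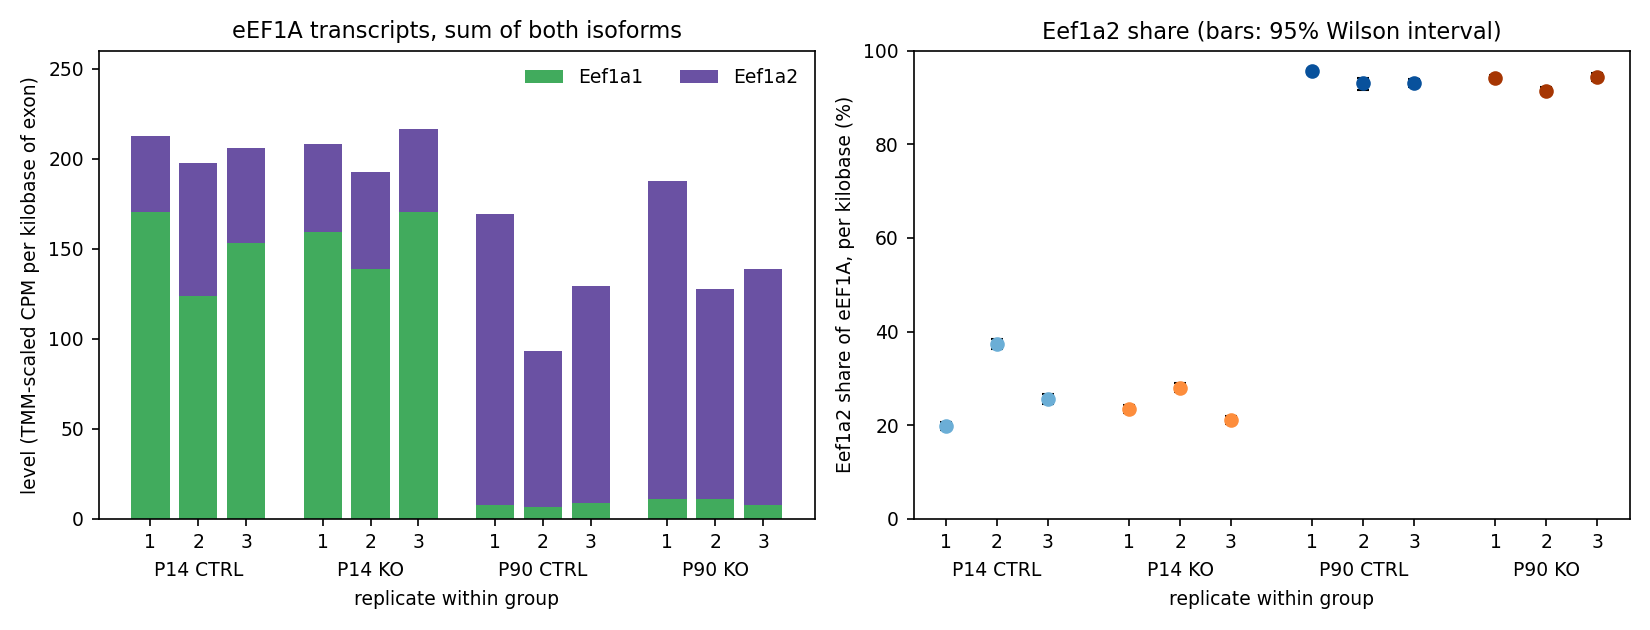
Left, the level of Eef1a1 and Eef1a2 transcripts in each of the 12 libraries, stacked, in TMM-scaled CPM per kilobase of exon. Right, the Eef1a2 share of the sum in each library in percent, with 95% Wilson intervals. The P14 libraries lie between 19.8 and 37.4% and the P90 libraries between 91.5 and 95.6%.

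The sum of both isoforms was lower at P90, because the gain in Eef1a2 was smaller than the loss of Eef1a1. It was 205 ± 7.36 CPM per kilobase in P14 CTRL and 206 ± 12.1 in P14 KO, against 131 ± 38.1 in P90 CTRL and 151 ± 31.9 in P90 KO (SD, n = 3 each). The P14 libraries ranged from 192 to 216 and the P90 libraries from 93.3 to 188 CPM per kilobase, so the stages did not overlap, but the P90 libraries were far more spread. Replicate 2 of P90 CTRL, the shallowest library with 9740389 reads, had the lowest sum.

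The order of levels within CTRL followed this exchange. At P14, in CPM per kilobase, Eef2 (167 ± 7.80) and Eef1a1 (149 ± 23.6) came first and overlapped each other. Eef1a2 (56.2 ± 16.2), Eef1g (40.8 ± 2.15), Eef1d (38.0 ± 5.60) and Eef1b2 (30.9 ± 3.66) followed, with Eef2k (7.45 ± 0.33) last. Among these, the lowest Eef1a2 library (42.1) overlapped Eef1g and Eef1d, Eef1g overlapped Eef1d, and Eef1d overlapped Eef1b2. At P90, Eef2 (134 ± 9.03) and Eef1a2 (123 ± 37.6) came first and overlapped. Eef1g (36.4 ± 4.57) overlapped Eef1d (31.1 ± 3.15), Eef1b2 (25.4 ± 1.54) was below both, and Eef1a1 (7.63 ± 1.20) stood at the level of Eef2k (7.55 ± 0.87), which it overlapped (SD, n = 3 for each value).

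**Figure D2:**
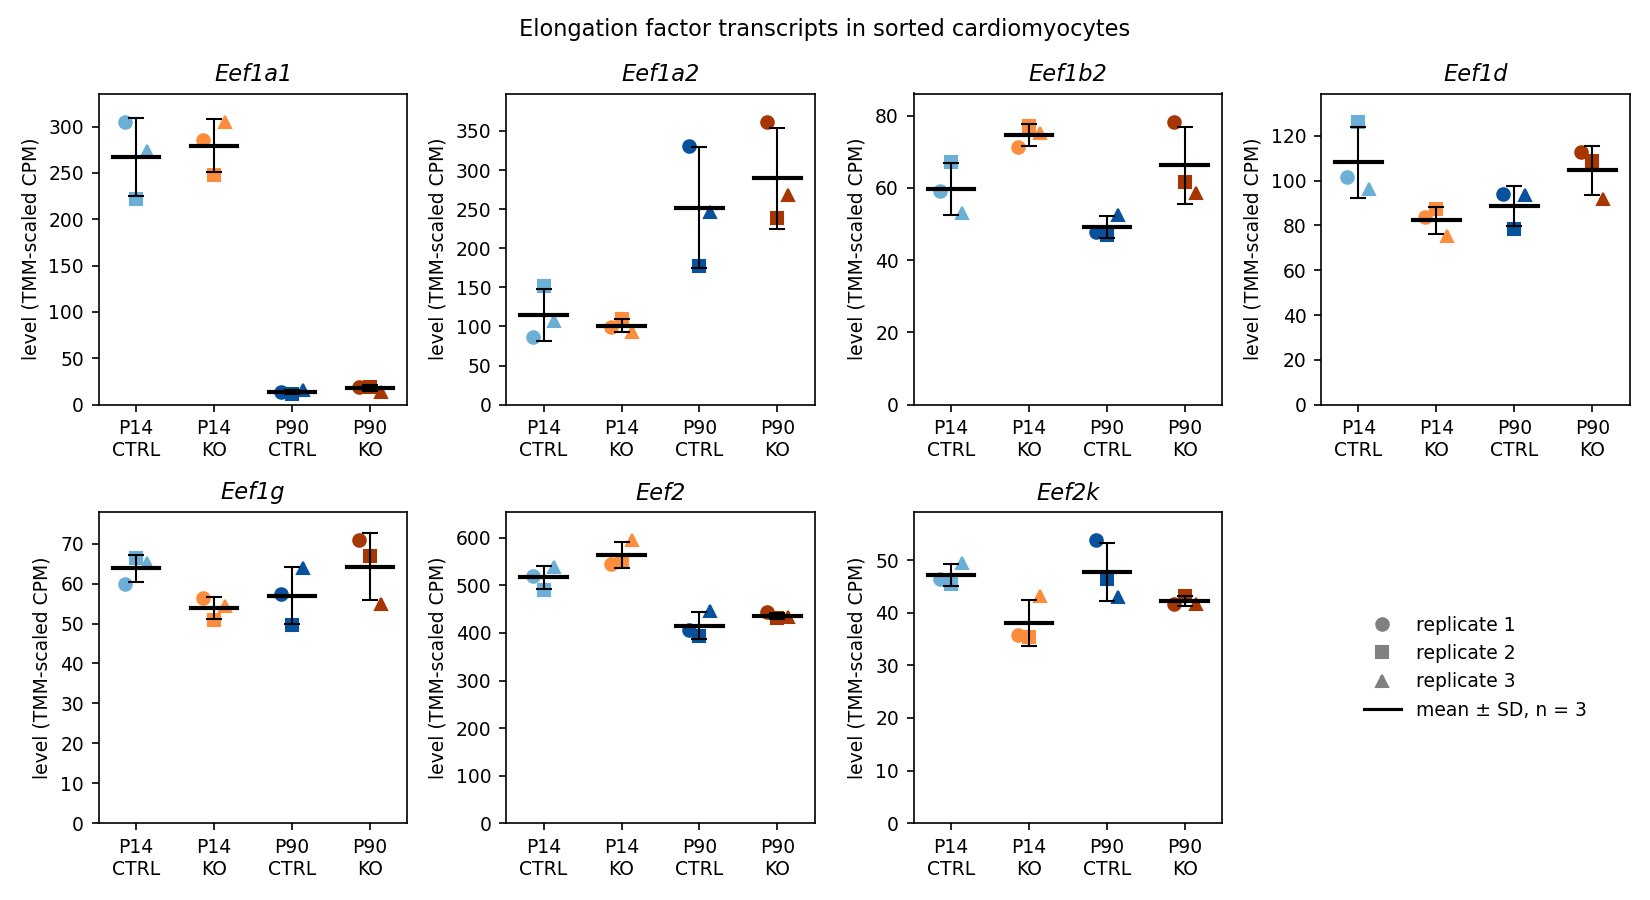
Level of each of the 7 genes in TMM-scaled CPM (vertical axes, each starting at 0) in the 12 libraries, with the mean and SD of each group of 3. Eef1a1 has a CTRL mean of 267 CPM at P14 and 13.6 CPM at P90, and the group means of the other 6 genes stay within 3-fold of each other.

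Of the subunits of the exchange complex eEF1B, Eef1b2 lay above CTRL in neonatal KO and Eef1d and Eef1g below it, and none passed the test. Eef1b2, which encodes a subunit with exchange activity (chr1:63176831-63180486, plus strand), measured 59.2, 67.1 and 52.9 CPM in P14 CTRL and 71.2, 77.3 and 75.2 CPM in P14 KO. In P90 CTRL it measured 47.9, 47.0 and 52.5 CPM, and in P90 KO 78.3, 61.8 and 58.6 CPM. All KO libraries lay above all CTRL libraries of the same stage. The log2 fold change was 0.32 ± 0.12 in neonatal KO (SE, n = 3 per group, edgeR adjusted p = 0.131) and 0.44 ± 0.12 in adult KO (edgeR adjusted p = 0.130), so neither passed the threshold of 0.05. Without replicate 2 of P14 CTRL, the neonatal difference was 0.41 and passed (edgeR adjusted p = 0.0435). In adult KO, the adjusted p over the alternatives ran from 0.00889, with no filter on low counts, to 0.331.

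Eef1d encodes the other subunit with exchange activity (chr15:75894800-75909340, minus strand). It measured 102, 126 and 96.2 CPM in P14 CTRL and 83.9, 87.3 and 75.4 CPM in P14 KO, where every library was below every CTRL library. In P90 CTRL it measured 93.9, 78.3 and 93.7 CPM and in P90 KO 113, 109 and 91.9 CPM, which overlapped. The log2 fold change was -0.40 ± 0.13 in neonatal KO (SE, n = 3 per group, edgeR adjusted p = 0.0981) and 0.24 ± 0.11 in adult KO (edgeR adjusted p = 0.317). Neither passed, although the neonatal value did in 1 fit of all 12 libraries (edgeR adjusted p = 0.0454).

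Eef1g, the gene of the structural subunit (chr19:8967041-8978180, plus strand), measured 60.0, 66.3 and 65.2 CPM in P14 CTRL and 56.5, 50.9 and 54.4 CPM in P14 KO. In P90 CTRL it measured 57.4, 49.6 and 63.8 CPM and in P90 KO 70.9, 67.0 and 54.9 CPM. KO was below CTRL in every library at P14 and overlapped it at P90. The log2 fold changes of -0.25 ± 0.10 in neonatal KO (SE, n = 3 per group, edgeR adjusted p = 0.174) and 0.18 ± 0.13 in adult KO (edgeR adjusted p = 0.521) did not pass.

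Ratios between subunits of the same library do not depend on how libraries are scaled, and are given as a description chosen after the levels were seen. The log2 ratio of Eef1b2 to Eef1d, per kilobase, was -0.22, -0.35 and -0.30 in P14 CTRL and 0.32, 0.38 and 0.55 in P14 KO. Per kilobase of summed exon (1933 bp for Eef1b2 and 2847 bp for Eef1d), Eef1b2 was thus below Eef1d in every P14 CTRL library and above it in every P14 KO library. In CPM, without that division, Eef1b2 was below Eef1d in every P14 library of both genotypes. Which of the pair is more abundant therefore depends on the exon lengths used, while the difference between genotypes in this ratio does not. At P90 the ratio was -0.41, -0.18 and -0.28 in CTRL and 0.03, -0.26 and -0.09 in KO, which overlapped. The log2 ratio of Eef1b2 to Eef1g was -0.33, -0.29 and -0.60 in P14 CTRL against 0.03, 0.30 and 0.16 in P14 KO, and -0.57, -0.38 and -0.59 in P90 CTRL against -0.16, -0.42 and -0.21 in P90 KO. Eef1b2 made up 28.2 ± 1.35% of the 3 subunit transcripts in P14 CTRL, 37.9 ± 1.62% in P14 KO, 27.4 ± 1.5% in P90 CTRL and 30.6 ± 2.06% in P90 KO (SD, n = 3 each). The sum of the 3 subunits was 110 ± 10.2, 102 ± 1.58, 92.9 ± 8.82 and 112 ± 13.9 CPM per kilobase in the same groups.

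**Figure D3:**
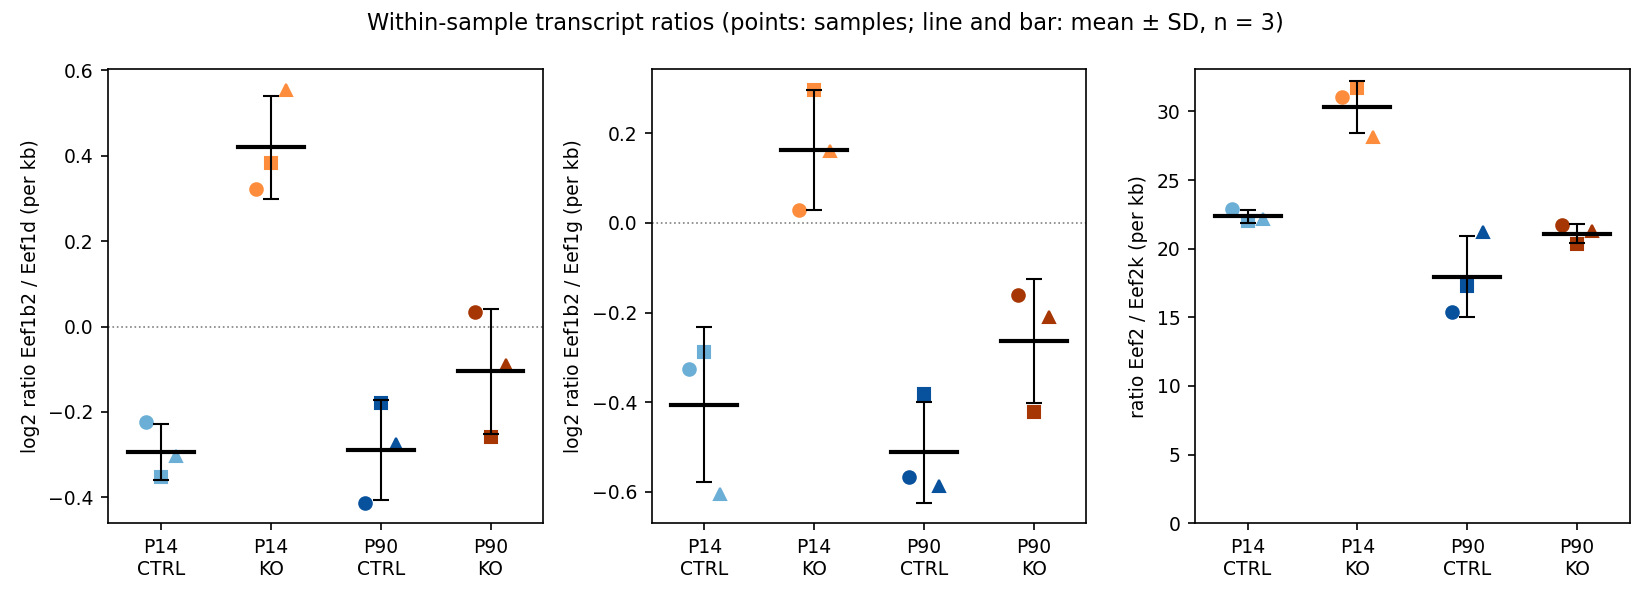
Within-library ratios of transcript levels per kilobase in the 4 groups, as log2 ratios of Eef1b2 to Eef1d and of Eef1b2 to Eef1g and as the plain ratio of Eef2 to Eef2k. Points are libraries (circles, squares and triangles for replicates 1, 2 and 3), and lines with bars give the mean and SD. In all 3 panels the P14 KO libraries lie above every other library.

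Eef2, the translocase (chr10:81176631-81182509, plus strand), measured 520, 491 and 539 CPM in P14 CTRL and 546, 550 and 595 CPM in P14 KO. At P90 it measured 406, 393 and 447 CPM in CTRL and 444, 431 and 433 CPM in KO, and every P90 library was below every P14 library. The log2 fold change was 0.12 ± 0.10 in neonatal KO (SE, n = 3 per group, edgeR adjusted p = 0.513) and 0.07 ± 0.09 in adult KO (edgeR adjusted p = 0.725).

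Eef2k (chr7:120842855-120907219, plus strand) measured 46.3, 45.6 and 49.6 CPM in P14 CTRL and 35.9, 35.4 and 43.1 CPM in P14 KO, with no overlap. In P90 CTRL it measured 53.8, 46.5 and 43.0 CPM and in P90 KO 41.7, 43.3 and 41.6 CPM, and these overlapped by a single CTRL library. The log2 fold changes of -0.31 ± 0.12 in neonatal KO (SE, n = 3 per group, edgeR adjusted p = 0.144) and -0.18 ± 0.11 in adult KO (edgeR adjusted p = 0.442) did not pass. Per kilobase, the ratio of Eef2 to Eef2k was 22.9, 22.0 and 22.2 in P14 CTRL and 31.1, 31.7 and 28.2 in P14 KO. At P90 it was 15.4, 17.3 and 21.2 in CTRL and 21.7, 20.3 and 21.3 in KO. The 2 genotypes did not overlap in this transcript ratio at P14 and did at P90. The ratio says nothing of the phosphorylation of eEF2, which was not measured.

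For the eEF1A isoforms, the loss of Srf gave log2 fold changes of 0.06 ± 0.14 for Eef1a1 (SE, n = 3 per group, edgeR adjusted p = 0.839) and -0.19 ± 0.20 for Eef1a2 (edgeR adjusted p = 0.604) in neonatal KO. Without replicate 2 of P14 CTRL, both changed sign, to -0.05 and 0.06. In adult KO the values were 0.37 ± 0.17 for Eef1a1 (edgeR adjusted p = 0.310) and 0.20 ± 0.21 for Eef1a2 (edgeR adjusted p = 0.673).

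Counted over the 7 genes, all of which passed the filter on low counts in every fit, 0 passed in neonatal KO, where 1078 of 12546 genes tested, or 8.59%, did (4.6% lower and 3.99% higher in KO). Of the members, 4 had an unadjusted p under 0.05 (Eef1b2, Eef1d, Eef1g and Eef2k), against 3206 of the 12546 genes tested, and DESeq2 called 0. The KO and CTRL libraries did not overlap for 5 of the 7 genes, against 32.7% of all genes tested. In adult KO, 0 of the 7 passed, against 0.39% of all genes tested (46 of 11808). There, 1 member, Eef1b2, had an unadjusted p under 0.05, against 1910 of the 11808 genes tested. It was also the only one of the 7 without overlap, against 21.6% of all genes, and DESeq2 called 0. The median log2 fold change of all genes tested was 0.00 in neonatal KO and 0.01 in adult KO.

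These values are relative to the TMM scaling. The 7 CM markers, which hold several percent of the reads, summed to less in P14 KO, and the TMM factors were 1.12 to 1.19 there and 0.943 to 1.03 in P14 CTRL. Under TMM, the median log2 difference of all genes between KO and CTRL was 0.014 at P14 and -0.000954 at P90. Under scaling by total counts alone, it was 0.21 at P14 and 0.03 at P90. On that scale the P14 difference between KO and CTRL in mean log2 CPM was 0.54 for Eef1b2, -0.17 for Eef1d, -0.03 for Eef1g, -0.10 for Eef2k, 0.34 for Eef2, 0.29 for Eef1a1 and 0.06 for Eef1a2, so that Eef1a2 changed direction. In TPM, which corrects for exon length as well, Eef1g also changed direction (0.07).

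**Figure D4:**
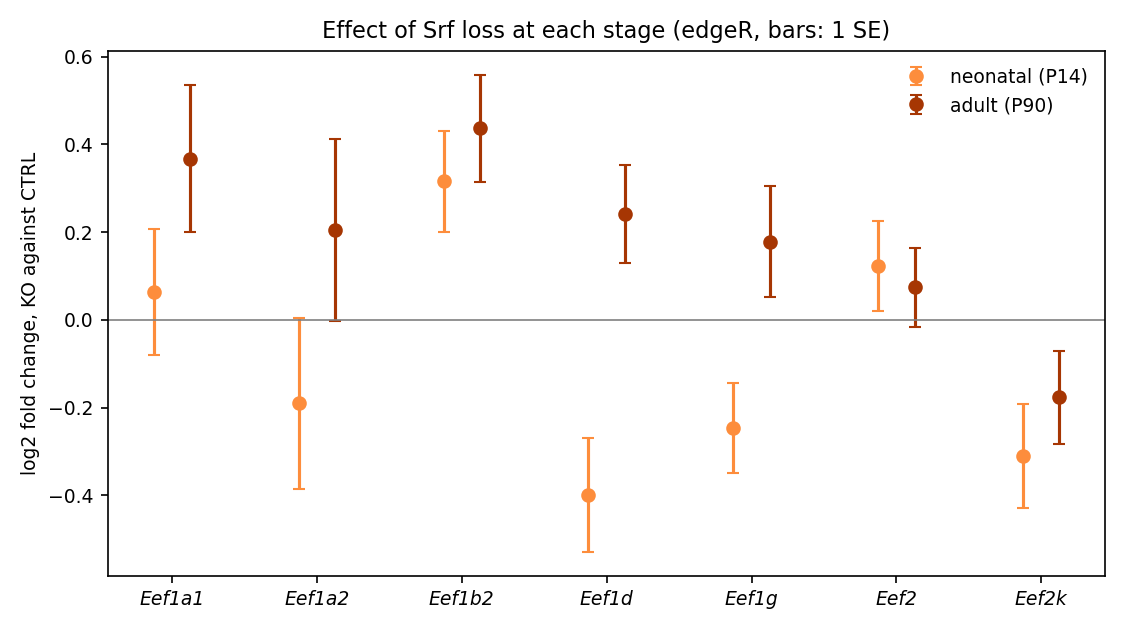
Log2 fold change of each of the 7 genes in KO against CTRL (vertical axis), in the neonatal and the adult model, from edgeR with 1 SE. Eef1b2 is above 0 in both (0.32 and 0.44), Eef2k below 0 in both (-0.31 and -0.18), and Eef1d lies on opposite sides of 0 (-0.40 and 0.24).

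Whether the loss of Srf acted differently at the 2 stages was tested as the neonatal minus the adult log2 fold change in 1 fit of all 12 libraries. None of the 7 members passed in edgeR, against 1.78% of the genes tested (228 of 12841), while DESeq2 called 1. An unadjusted p under 0.05 was found for 2 members, against 2440 of the 12841 genes tested. Eef1d had the largest difference, -0.63 ± 0.18 (SE, n = 3 per group, edgeR adjusted p = 0.0815), and was the member called by DESeq2 (adjusted p = 0.0149). Over the alternatives its adjusted p ran from 0.0149 to 0.204. Eef1g followed with -0.42 ± 0.16 (SE, n = 3 per group, edgeR adjusted p = 0.193). The values of the other 5 were -0.38 for Eef1a2, -0.30 for Eef1a1, -0.13 for Eef2k, -0.11 for Eef1b2 and 0.06 for Eef2.

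Other genes of the translation pathway were taken from 9 lists. In neonatal KO, 3 of 10 mitochondrial translation factor genes fell and none rose, against 4.6% of all genes tested lower and 3.99% higher. The list median was -0.52 and all 10 were below 0, against 6254 of the 12546 genes tested. The 3 that passed were Tufm, Mtif2 and Mtrf1. Tufm, the mitochondrial counterpart of eEF1A, fell by 0.71 on the log2 scale, from 218 ± 20.4 to 134 ± 9.92 CPM (SD, n = 3 each, edgeR adjusted p = 0.0149). Mtif2 is an initiation factor (-0.62, edgeR adjusted p = 0.015) and Mtrf1 a release factor (-0.56, edgeR adjusted p = 0.044). With replicate numbers as a block, Mtrf1 no longer passed (edgeR adjusted p = 0.056). Without replicate 2 or without replicate 3 of P14 KO, 0 of the 10 passed, without replicate 1 of P14 KO 1 did, and without replicate 2 or 3 of P14 CTRL 2 did, with list medians of -0.55 to -0.42. DESeq2 called 7 of the 10, and edgeR in 1 fit of all 12 libraries 8, all lower, against 14.6% and 16.3% of all genes tested. In adult KO 0 of these 10 passed, against 0.39% of all genes tested, and their median was -0.10. In the test of the difference between stages, 0 of the 10 passed in edgeR, against 1.78% of all genes tested, with a list median of -0.40. DESeq2 called 3 of them lower there, against 7.13%, and edgeR with the replicate block 1, against 5.35%.

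Of 79 cytosolic ribosomal protein genes tested, only Rpl3l, the striated muscle paralog of Rpl3, passed in neonatal KO. It measured 81.9, 163 and 63.2 CPM in P14 CTRL and 42.8, 43.5 and 21.5 CPM in P14 KO, which did not overlap (-1.52 ± 0.38, SE, n = 3 per group, edgeR adjusted p = 0.0466). Leaving out replicate 1 or 2 of P14 CTRL or any 1 replicate of P14 KO ended that call, and without replicate 2 of P14 CTRL the value was -1.02 (edgeR adjusted p = 0.0702). In CTRL, Rpl3 fell from 85.5 ± 21.8 CPM at P14 to 21.3 ± 6.09 CPM at P90 (-2.0 ± 0.25, edgeR adjusted p = 0.000801), while Rpl3l rose from 103 ± 53.3 to 297 ± 15.8 CPM (1.54 ± 0.30, edgeR adjusted p = 0.0055), so that this pair of paralogs moved in opposite directions between the stages. The median over the ribosomal protein genes was -0.17 in neonatal KO, where it became 0.01 without replicate 2 of P14 CTRL, and 0.38 in adult KO. In adult KO 78 of 79 were above 0, and 0 passed the threshold in edgeR. There, 52 of them had an unadjusted p under 0.05, against 1910 of the 11808 genes tested. DESeq2 called 6 of them in adult KO, against 2.9% of all genes tested. There edgeR called 34 of 82 without a filter on low counts, against 3.6% of all genes. With the replicate block it called 29 of 79, against 5.55%, and in 1 fit of all 12 libraries 0.

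In the other 7 lists 0 genes passed in either KO comparison in edgeR. With the replicate block, edgeR called 2 initiation factors and 1 gene upstream of eEF2 lower in neonatal KO, and DESeq2 called 3 initiation factors, 1 aminoacyl-tRNA synthetase and 2 genes upstream of eEF2, all lower. Over all genes tested, these settings called 12.2% and 14.6%. In adult KO, DESeq2 called 1 gene of a modifying enzyme higher and 2 genes upstream of eEF2 lower, against 2.9% of all genes tested. Unadjusted p-values under 0.05 were found in neonatal KO for 1 of 9 other elongation and ribosome rescue genes, 1 of 13 genes of enzymes that modify elongation factors, 5 of 37 initiation factors, 1 of 2 termination factors, 3 of 20 aminoacyl-tRNA synthetases, 3 of 19 genes of kinases and phosphatases upstream of eEF2, and 0 of 3 eIF4E-binding proteins. In adult KO the numbers were 0, 1, 6, 0, 1, 6 and 0. Over all genes tested they were 3206 of 12546 in neonatal KO and 1910 of 11808 in adult KO. In the test of the difference between stages, edgeR called 1 gene of all lists, while DESeq2 called 21, all lower, among them 9 ribosomal protein genes, and edgeR with the replicate block 11. Over all genes tested, these settings called 1.78%, 7.13% and 5.35%. The ribosomal protein genes had a median difference of -0.59, with 77 of 79 below 0, and 0 of them passed in edgeR. An unadjusted p under 0.05 was found for 37 of them, against 2440 of the 12841 genes tested. The gene called by edgeR was Calm2, 1 of the genes that encode calmodulin, the activator of eEF2K, at -0.79 ± 0.18 (SE, n = 3 per group, edgeR adjusted p = 0.0487). It measured 107 ± 16.1 and 77.6 ± 9.32 CPM in CTRL and KO at P14, and 99.4 ± 4.27 and 125 ± 16.2 CPM at P90 (SD, n = 3 each).

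Between P14 and P90 CTRL, where 29.3% of all genes tested passed (14.9% lower and 14.5% higher at P90), 42 genes of the lists did. Initiation factors had 13 of 37, of which 9 were lower, but leaving out replicate 1 of P14 CTRL or replicate 1 of P90 CTRL left 2 lower and 2 higher, and leaving out replicate 2 of P90 CTRL 3 of each. The largest decrease was that of Pabpc1, the cytoplasmic poly(A)-binding protein, from 56.0 ± 2.45 to 20.9 ± 1.93 CPM (-1.42, edgeR adjusted p = 0.000136), and the largest increase that of Eif1 (0.68, edgeR adjusted p = 0.00771). Among genes upstream of eEF2 phosphorylation, 6 of 19 passed, 3 in each direction. Prkab2, a subunit of the energy-sensing kinase AMPK, had the largest increase (0.85, edgeR adjusted p = 0.00105) and Calm3 the largest decrease (-1.23, edgeR adjusted p = 0.00442). Of the ribosomal protein genes, 15 of 79 passed, 12 lower and 3 higher, but without replicate 2 of P14 CTRL 5 were lower and 12 higher, and the list median turned from -0.04 to 0.14. With no filter on low counts 6 were lower and 5 higher. Leaving out replicate 1 of P14 CTRL or any 1 replicate of P90 CTRL left 4 or 5 lower and 2 or 3 higher. The largest increase was that of Rpl21, from 2.38 ± 0.79 to 16.0 ± 1.74 CPM (2.74, edgeR adjusted p = 0.000237). It rested on 61, 56 and 25 reads in P14 CTRL, and measured 2.07, 2.87 and 9.65 CPM in P14 KO. Sequence that Rpl21 may share with other genes was not searched. Other elongation and ribosome rescue genes had 3 of 9, with Eef1e1 higher (0.55, edgeR adjusted p = 0.0499) and Eif5a2 lower (-1.29, edgeR adjusted p = 0.0238). Vars (0.42, edgeR adjusted p = 0.0387) led 3 of 20 aminoacyl-tRNA synthetase genes, all higher. Eif4ebp2 (0.96, edgeR adjusted p = 0.0406) was 1 of 3 eIF4E-binding protein genes and Mtrf1 (0.62, edgeR adjusted p = 0.0085) 1 of 10 mitochondrial factors. None of 13 genes of modifying enzymes (2 at an unadjusted p under 0.05) and none of 2 termination factors (0) passed in edgeR. Over all genes tested, 5117 of 12294 had an unadjusted p under 0.05. Leaving out 1 library at a time ended the calls of Eef1e1, Eif5a2, Vars and Eif4ebp2 in some cases, with adjusted p-values up to 0.151, 0.0888, 0.155 and 0.161.

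The genes whose levels followed Eef1a1 most closely over the 12 libraries, by the root-mean-square difference of centred log2 CPM among 9467 genes, were Plagl1 (0.43), Lpar3 (0.50), Kcne1 (0.51), Ngfrap1 (0.52) and Ucp2 (0.55). Plagl1, an imprinted zinc finger gene, averaged 30.1 and 31.1 CPM in P14 CTRL and KO and 2.63 and 3.28 CPM at P90. Kcne1, a potassium channel subunit, averaged 426 and 226 CPM at P14 and 19.6 and 19.7 CPM at P90, and Ucp2, a mitochondrial carrier, 603 and 1116 CPM at P14 and 56.5 and 82.6 CPM at P90. Those closest to Eef1a2 were 2210408F21Rik (0.20), Gpx4 (0.20), Ppp1r13l (0.20), Cryab (0.21) and Tecr (0.21). Cryab, a small heat shock protein gene of striated muscle, averaged 719 and 728 CPM at P14 and 1780 and 2246 CPM at P90. The distances to Eef1a2 were smaller than those to Eef1a1, whose own range was larger.

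SRF binds the CArG box, and this motif was searched by letters on both strands in promoter windows of 300 bases (RefSeq, GRCm38.p6), from 250 before to 50 after each start. It was found in 0 of 7 windows of the 5 members with an entry (Eef1a1, Eef1a2, Eef1b2, Eef2 and Eef2k) and in 535 of all 32851 windows, or 1.63%. The result says only that these letters are not in those windows.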

How the data were processed

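RNA was sequenced from sorted CMs with a low-input, poly(A)-selected protocol (SMART-Seq v4, Nextera XT). Per the labels, the authors called bases with CASAVA 1.8, aligned reads to mm10 with STAR 2.5.3a and counted them with featureCounts (Subread 1.5.2). The strand setting and the treatment of multi-mapping reads are not given in the sources used here. The deposited values are raw read counts per gene for each library, in 1 table per stage, whose columns carry the group and replicate number of the labels.

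Genes with low counts were removed by edgeR's filterByExpr, libraries were scaled by TMM, and the quasi-likelihood F-test of edgeR 4.0.16 (R 4.3.3) was run on all genes, with Benjamini-Hochberg adjustment and a threshold of 0.05. Alternatives were DESeq2 1.42.0, DESeq2 size factors, no filter, a replicate block, 1 fit of all libraries and leaving out each library. Total counts and TPM, computed here from the counts and the exon lengths in the tables, were used for levels, and their use for the KO differences was added after seeing the data. The script was tested on simulated counts. Exon overlap, 50-base windows and coding sequences came from GRCm38 and its GENCODE annotation, with biopython 1.88.

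Same-numbered KO and CTRL libraries deviated together at P14 (Pearson r over genes 0.13, 0.19 and 0.43). Replicate numbers were therefore taken to pair these libraries, a pairing that comes from the data. The main tests left this pairing out, and it entered only through the replicate block among the alternatives. In neonatal KO, the main test called 1078 of 12546 genes and the block 1529. Replicates of 1 group differed by more than sampling noise in every pair.

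The 7 members and all gene lists were chosen with earlier results of these data known. Named genes were the members, Srf, list genes past the threshold (in the stage comparison the largest change in each direction) and the 5 genes closest to each eEF1A gene. Members were tested for KO effects only.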

Additional observations from a re-analysis of the deposited data

Results flagged for a closer look

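The KO effect on Calm2 differed between the stages by the test of the difference itself, at -0.79 on the log2 scale (edgeR adjusted p = 0.0487), and among the members and list genes it was the 1 that edgeR called, while DESeq2 called Eef1d and 21 list genes. In 9 of 12 fits that left out 1 library the difference no longer passed, among them that without replicate 2 of P14 CTRL (-0.65, edgeR adjusted p = 0.0746), and over all alternatives the value ran from -0.88 to -0.65.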

How the results depend on the processing

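Of the 7 members, 0 passed in each KO comparison and in the test between stages. In neonatal KO, the number was 1 with 1 fit of all 12 libraries (Eef1d) and 0 to 1 when leaving out 1 library, the 1 being Eef1b2 without replicate 2 of P14 CTRL. In adult KO it was 1 (Eef1b2) with no filter and 1 with the replicate block, and between stages 1 (Eef1d) with DESeq2 and 1 with the block. The P14 pairing, which the main tests left out, kept the members' count at 0 when used as a block. It moved the genes called in neonatal KO from 1078 to 1529. At P90 the same-number correlations were 0.34, 0.071 and 0.13, but not every library correlated best with its own number. Whether those libraries are paired is therefore not settled here, and the block moved the genes called in adult KO from 46 to 655. Over all genes, neonatal calls numbered 1832 with DESeq2, 2088 with 1 fit and 111 to 1004 leaving out 1 library, adult calls 343 with DESeq2, 701 with no filter, 3 with 1 fit and 6 to 51, and stage-difference calls 916 with DESeq2, 474 with no filter, 687 with the block and 4 to 377. The 42 list genes between CTRL stages became 27 with the block and 17 to 53 leaving out 1 library. The KO minus CTRL difference in log2 Eef1a2 to Eef1a1 ran from -0.51 to 0.12 at P14 and from -0.25 to 0.096 at P90 (0.096 without replicate 1 of CTRL, 0.078 without replicate 2 of KO), and that in the Eef1a2 share from -7.29 to 1.5 percentage points at P14 and from -1.04 to 0.41 at P90. Leaving out 1 library gave -0.052 to 0.16 for Eef1a1 and -0.37 to 0.061 for Eef1a2 in neonatal KO, and between stages -0.19 to 0.039 for Eef1b2, -0.00061 to 0.11 for Eef2 and -0.37 to 0.29 for Srf. For P90 minus P14 in KO, total counts and TPM turned Eef1g (-0.040 and -0.22) and Eef2k (-0.13 and -0.32) and TPM turned Eef1d (-0.13). In CTRL both turned Eef2k (-0.095 and -0.10), which ran from -0.075 to 0.086 leaving out 1 library. For KO minus CTRL at P14, total counts and TPM turned Eef1a2 (0.063 and 0.16) and TPM turned Eef1g (0.066). The median shift of all genes under these scalings is their construction, and the cause of the other changes was not tested. At the depth of these libraries Eef1a1 rested on 107 to 421 reads at P90.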
